A study of Homo sapiens with 6 samples.

Results

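The genes described here are 35 enzymes, regulators and carriers of cholesterol and fatty acid metabolism, out of 58735 genes in the deposited table. They were matched by gene symbol to a list of names, which was drawn up with earlier results of these data known, and all 35 were found. RNA had been sequenced from KYSE30 cells, an established human line from an oesophageal squamous cell carcinoma. The cells had been transfected with the RAB23 siRNA si-RAB23-1, with the RAB23 siRNA si-RAB23-9 or with the control siRNA si-NC. Each siRNA was given at 100 nM with the HiPerFect reagent, and each group holds 2 libraries of total RNA from this single line. Levels are given in FPKM, that is per length of gene and per size of library, from 17211025 to 24178125 recovered reads per library. Libraries of 1 group are labelled biological replicates, without saying whether they came from separate cultures, so p-values measure only how far these libraries spread, and that may be technical. The sources used here do not give the siRNA sequences, the time from transfection to harvest or the use of strand.

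Cells make cholesterol from acetyl-CoA by way of mevalonate, farnesyl diphosphate, squalene and lanosterol. The transcription factors encoded by SREBF1 and SREBF2 are held in the endoplasmic reticulum with SCAP and INSIG proteins when sterol is plentiful. When sterol is scarce they travel to the Golgi, are cut, and switch on genes of cholesterol and fatty acid synthesis, INSIG1 among them. The same acetyl-CoA feeds fatty acid synthesis through ACLY, ACACA and FASN, after which elongases and desaturases reshape the chain.

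RAB23, the targeted gene, codes for a Rab GTPase, a switch of membrane traffic. It had 1.03 and 1.10 FPKM with si-RAB23-1, 1.18 and 1.27 FPKM with si-RAB23-9, against 3.27 and 3.33 FPKM with si-NC. All libraries of both RAB23 siRNAs lay below both si-NC libraries (limma log2 fold change -1.06, adjusted p = 0.00314, and -0.95, adjusted p = 0.00392). Voom on the recovered reads, scaled by library totals, gave -1.65 and -1.43. Of 8 squamous epithelial markers, KRT5 was near 0 in every library. The summed level was 468 to 491 FPKM with si-RAB23-1, 429 to 432 with si-RAB23-9 and 439 to 450 with si-NC. Most of that sum was SFN and CDH1 (301 and 86.7 FPKM in the si-NC mean). The keratins KRT13, KRT6A and KRT14 had 27.6, 3.99 and 2.19 FPKM there. KRT6A, KRT13, TP63 and DSG3 were called higher with si-RAB23-1 than with si-NC. For si-RAB23-9 against si-NC, KRT6A (0.35) and CDH1 (0.13) were called higher and TP63 (-0.28) and SFN (-0.19) lower. The summed levels of 4 adipocyte and 4 hepatocyte markers stayed under 1 FPKM in every library, as did those of the leukocyte and simple columnar lists. The fibroblast list summed to 3.44 to 3.92 FPKM, nearly all of it COL1A1, with COL1A2, DCN and LUM at 0. The endothelial list was 1.62 to 2.12 FPKM with si-RAB23-1, 2.75 to 3.18 with si-RAB23-9 and 3.77 to 3.803 with si-NC, mostly CDH5. The part of these marker levels in the results below was not tested. In bulk RNA, fewer cells of a type and less RNA per cell cannot be told apart.

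All 35 genes passed the filter of at least 1 FPKM in at least 2 libraries and were tested by limma on log2(FPKM + 1) together with 14352 genes in all. The threshold was 0.05 for the p-value adjusted over all those genes by Benjamini and Hochberg, and every fold change is a difference on the log2(FPKM + 1) scale, which understates changes of low genes. Most of the pathway did not pass the test against si-NC with either siRNA. With si-RAB23-1, 1 gene was higher and 4 were lower than with si-NC, that is 2.86% and 11.4% of the 35. Among all genes tested 8.13% were higher and 7.26% lower in that comparison. With si-RAB23-9, 4 genes were higher and 2 lower than with si-NC, 11.4% and 5.71% of the 35, where 7.56% and 5.69% of all genes tested were called. Between the RAB23 siRNAs, si-RAB23-9 had 10 genes higher and 3 lower relative to si-RAB23-1, 28.6% and 8.57% of the 35, where 11.1% and 9.89% of all genes tested were called. The median log2 fold change of the 35 was -0.03, 0.0016 and 0.07 in these comparisons, beside 0.0083, 0.0060 and 0.00023 over all genes tested. Both comparisons with si-NC use the same control libraries, and each siRNA enters the third comparison, so their values are given side by side only. In all, 16 of the 35 were called in at least 1 comparison and 19 in none.

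The pathway was well expressed in these cells. In the mean of the si-NC libraries the 35 genes had a median of 16.4 FPKM, beside 5.42 FPKM over all genes tested, and 27 of them lay above that median. SCD, FASN, DHCR7 and SREBF1 had 90 FPKM or more, and 7 genes had under 5 FPKM. The lowest count behind any value was 114 reads. Within a group the libraries of a gene differed by a median of 0.08 (si-RAB23-1), 0.06 (si-RAB23-9) and 0.05 (si-NC) on the log2 scale.

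**Figure D1:**
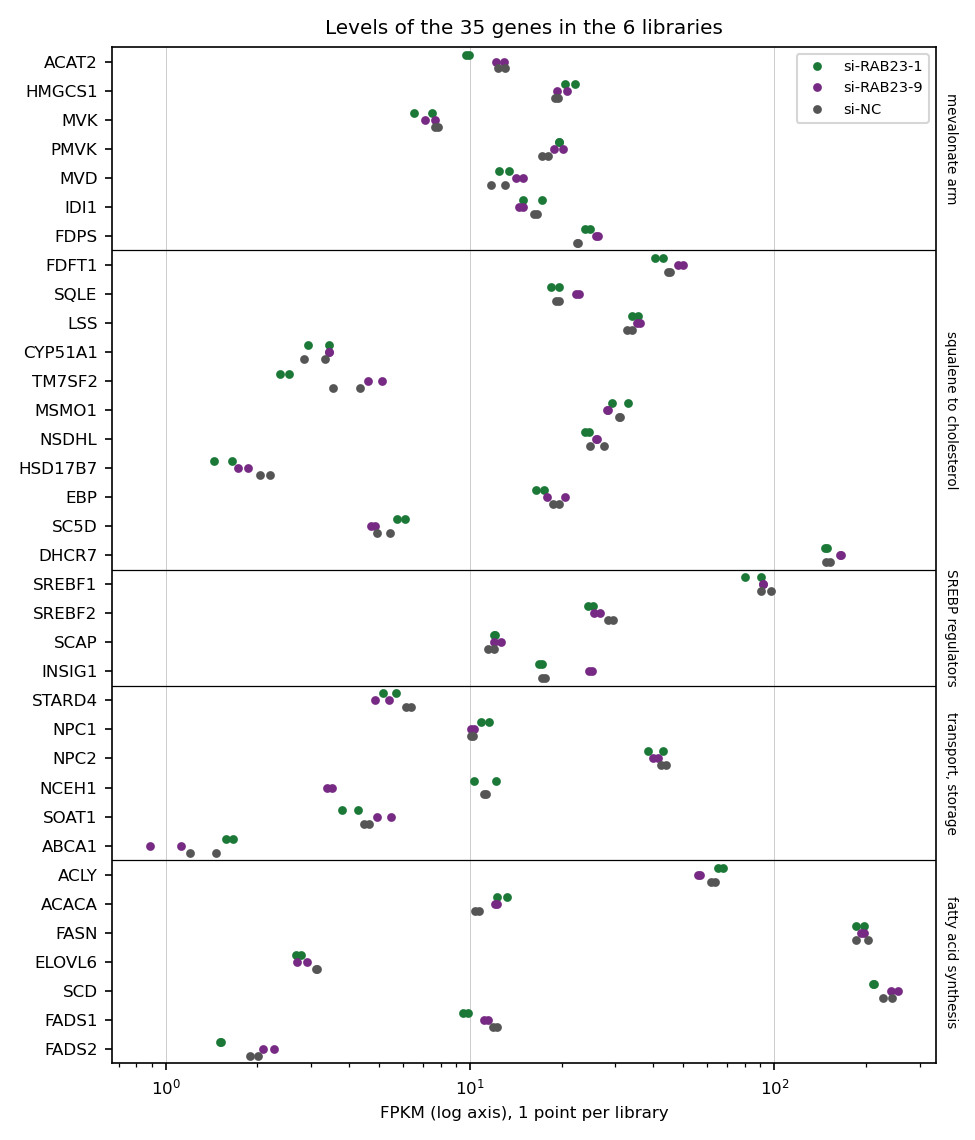
FPKM of the 35 genes on a log axis, 1 point per library, for si-RAB23-1, si-RAB23-9 and si-NC, in the 5 role groups. SCD, FASN and DHCR7 lie at the top of the range, and most genes have the 6 points close together, with NCEH1 under si-RAB23-9 standing well below its other points.

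Sequences at the starts of a few of these genes are shown because SREBP factors act at such sites. RefSeq windows on GRCh38.p14, from 250 bases before to 50 after a start, were found for 31 of the 35. A total of 7 motifs were searched on both strands, and the choice of which to mark was made after their counts had been seen. CACNCCAC, a short form of the sterol regulatory element, was in a window of 7 of the 31 (22.6%; IDI1, SC5D, SREBF2, INSIG1, ABCA1, ACACA and SCD) and of 7.05% of 27305 genes. CCAAT, the site of the NF-Y factor, was in 23 of the 31 (74.2%) and in 39.7% of all genes. The longer forms TCACNCCAC, TCACCCCAC and ATCACCCCAC, which contain CACNCCAC, were in 1 of the 31 (SREBF2) and in 1.39%, 0.535% and 0.0586% of all genes. The looser form TCACNCNAC, not marked below, was in 4 of the 31 (FDPS, HSD17B7, SREBF2 and FADS2) and 3.13% of all genes. TCGTGTGAT was in 0 of the 31 and 0.0623%. Capitals mark CACNCCAC and CCAAT or their reverse complements, GTGGNGTG and ATTGG, in the windows of INSIG1 (chr7:155297628-155297927, plus strand), SREBF2 (chr22:41832855-41833154, plus strand) and FDPS (chr1:155308616-155308915, plus strand), of which INSIG1 and FDPS were higher with si-RAB23-9 and SREBF2 lower with si-RAB23-1. The FDPS window holds no CACNCCAC, and its capitals mark CCAAT alone. A match is a run of letters, not a shown binding site.

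INSIG1: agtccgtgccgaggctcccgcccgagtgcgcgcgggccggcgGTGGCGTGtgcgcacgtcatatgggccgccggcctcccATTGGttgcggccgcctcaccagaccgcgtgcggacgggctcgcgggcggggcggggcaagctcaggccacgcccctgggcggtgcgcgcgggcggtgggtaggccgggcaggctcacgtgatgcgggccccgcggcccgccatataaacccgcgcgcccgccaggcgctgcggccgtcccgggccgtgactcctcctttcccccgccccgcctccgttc
SREBF2: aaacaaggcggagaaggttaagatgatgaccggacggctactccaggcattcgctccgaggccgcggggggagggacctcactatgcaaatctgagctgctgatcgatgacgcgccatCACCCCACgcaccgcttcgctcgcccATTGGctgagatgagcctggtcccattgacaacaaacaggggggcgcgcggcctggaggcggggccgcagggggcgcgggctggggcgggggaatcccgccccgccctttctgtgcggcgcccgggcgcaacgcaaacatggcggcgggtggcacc
FDPS: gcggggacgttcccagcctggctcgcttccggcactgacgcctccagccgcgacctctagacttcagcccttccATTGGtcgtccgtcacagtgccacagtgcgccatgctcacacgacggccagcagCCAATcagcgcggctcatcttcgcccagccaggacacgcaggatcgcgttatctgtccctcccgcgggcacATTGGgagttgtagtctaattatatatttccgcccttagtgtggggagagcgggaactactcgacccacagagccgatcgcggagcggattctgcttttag

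Short stretches of 3′ UTRs are shown for 2 heptamers taken from earlier results of these data, which some of the genes that fell most carry. As the heptamers came from these same data, the shares below support nothing about them. TM7SF2 and ACAT2, the genes of the 35 that fell most with si-RAB23-1 against si-NC, carry neither. Over 10909 tested genes with an annotated 3′ UTR, AAGTTAA on the sense strand was carried by 17.9%. With si-RAB23-9, 17.7% of its carriers and 4.22% of the other genes were lower than with si-NC. For si-RAB23-1 these shares were 8.24% and 8.79%. GACATAT was carried by 8.31%, and with si-RAB23-1 26.05% of its carriers and 7.12% of the other genes were lower than with si-NC. For si-RAB23-9 these shares were 9.71% and 6.37%. Among the 35 genes AAGTTAA is carried by IDI1, MSMO1, STARD4, NCEH1, ABCA1 and FADS1. Of these 6 only NCEH1 was called lower with si-RAB23-9 against si-NC. The others had log2 fold changes below 0 that were not called, from -0.25 (STARD4) to -0.09 (FADS1). GACATAT is carried by SREBF2, ABCA1 and ELOVL6, of which only SREBF2 was called lower with si-RAB23-1 against si-NC. In that comparison ABCA1 was at 0.17 and ELOVL6 at -0.14, neither called. The windows below come from GRCh38 with the heptamer in capitals, for NCEH1 on the minus strand (chr3:172632197-172632225 and chr3:172633079-172633107), SREBF2 on the plus strand (chr22:41907261-41907289), and 2 related genes with the largest falls, ELOVL5 on the minus strand (chr6:53267757-53267785) and SCD5 on the minus strand (chr4:82629670-82629698). As the siRNA sequences are not given, the part of these sites in any change was not tested.

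NCEH1, first site: tatgcatatacAAGTTAAaataattagaa
NCEH1, second site: tgacctttaatAAGTTAAaaaaacgagga
SREBF2: actgtgtcccaGACATATtcaataaacac
ELOVL5: gaaccactcatGACATATcttagaaggtc
SCD5: gtaggatttaaAAGTTAAattttaaattt

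Of the 7 genes that lead from acetyl-CoA to farnesyl diphosphate, 1 (14.3%) was called with each siRNA against si-NC. Among all genes tested 7.26% were lower with si-RAB23-1 and 7.56% higher with si-RAB23-9. ACAT2, the cytosolic thiolase that joins acetyl-CoA units, was lower with si-RAB23-1, and FDPS, the synthase of farnesyl diphosphate, was higher with si-RAB23-9. ACAT2 (ENSG00000120437, chromosome 6, 159760328 to 159779055) had 9.88 and 9.72 FPKM with si-RAB23-1, 12.2 and 12.9 with si-RAB23-9, against 12.99 and 12.35 with si-NC. Both si-RAB23-1 libraries lay below the other 4, which overlapped. The log2 fold change was -0.34 (SE 0.0483, limma adjusted p = 0.0117) with si-RAB23-1 against si-NC and 0.33 (limma adjusted p = 0.0104) between si-RAB23-9 and si-RAB23-1. The first call was lost without either si-NC library (limma adjusted p up to 0.0790) and the other without si-RAB23-9 replicate 2 (0.0697). ACAT2 overlaps TCP1, a chaperonin subunit gene on the opposite strand at a mean of 60.8 FPKM, whose own log2 fold change with si-RAB23-1 was 0.01. If strand was not used in counting, reads of the pair could have gone to either gene.

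FDPS (ENSG00000160752, chromosome 1, 155308748 to 155320666) had 23.8 and 24.8 FPKM with si-RAB23-1, 25.9 and 26.4 with si-RAB23-9, against 22.6 and 22.5 with si-NC. The 3 groups did not overlap, in the order si-NC, si-RAB23-1, si-RAB23-9. Only si-RAB23-9 against si-NC passed the test (log2 fold change 0.21, SE 0.0376, limma adjusted p = 0.0236), and that call was lost without any 1 library of these groups (up to 0.144). HMGCS1, which makes HMG-CoA, the kinases MVK and PMVK, the decarboxylase MVD and the isomerase IDI1 were called in no comparison. Their log2 fold changes lay between -0.15 (IDI1, si-RAB23-9 against si-NC) and 0.22 (MVD, si-RAB23-9 against si-NC). MVD had 12.5 and 13.4 FPKM with si-RAB23-1, 14.1 and 14.9 with si-RAB23-9, against 12.99 and 11.7 with si-NC (limma adjusted p = 0.0849 for si-RAB23-9 against si-NC).

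The 11 enzymes from squalene formation to cholesterol held 1 lower gene with si-RAB23-1 (9.09%) and 2 higher genes with si-RAB23-9 (18.2%) against si-NC. Among all genes tested 7.26% were lower with si-RAB23-1 and 7.56% higher with si-RAB23-9. Between the siRNAs 4 were higher and 1 lower (36.4% and 9.09%), beside 11.1% and 9.89% of all genes tested. TM7SF2, a sterol reductase that acts on lanosterol-derived intermediates, showed the widest gap. TM7SF2 (ENSG00000149809, chromosome 11, 65111845 to 65116384) had 2.37 and 2.55 FPKM with si-RAB23-1, 4.63 and 5.14 with si-RAB23-9, against 4.34 and 3.54 with si-NC. The groups did not overlap, and si-RAB23-9 was 1.99 times si-RAB23-1 in mean FPKM. Its log2 fold change was 0.77 between si-RAB23-9 and si-RAB23-1 (SE 0.0952, limma adjusted p = 0.00654), and this call held with any 1 library left out. Against si-NC it was -0.51 with si-RAB23-1 (limma adjusted p = 0.0231, lost without any 1 library of these groups, up to 0.0973) and 0.26 with si-RAB23-9 (limma adjusted p = 0.142). TM7SF2 overlaps the end of VPS51, a tethering complex gene on the same strand at a mean of 25.5 FPKM, which was higher by 0.17 with si-RAB23-9 than with si-RAB23-1 (limma adjusted p = 0.0478). The share of TM7SF2 reads that could belong to VPS51 was not tested.

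FDFT1, squalene synthase, and SQLE, squalene epoxidase, catalyse successive steps and were both higher with si-RAB23-9 than with si-RAB23-1. FDFT1 had 43.1 and 40.6 FPKM with si-RAB23-1, 50.2 and 48.2 with si-RAB23-9, against 45.5 and 44.8 with si-NC. SQLE had 19.6 and 18.5 FPKM with si-RAB23-1, 22.3 and 22.8 with si-RAB23-9, against 19.2 and 19.5 with si-NC. For both genes the si-RAB23-9 libraries were the highest, and for SQLE the si-RAB23-1 and si-NC libraries overlapped. The log2 fold changes between si-RAB23-9 and si-RAB23-1 were 0.23 for FDFT1 (limma adjusted p = 0.0193) and 0.23 for SQLE (limma adjusted p = 0.0175). Both of these calls were lost without either si-RAB23-9 library (up to 0.106). Against si-NC, SQLE rose by 0.21 with si-RAB23-9 (limma adjusted p = 0.0310, lost without any 1 library of these groups, up to 0.167) and FDFT1 was at 0.12 (limma adjusted p = 0.125).

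DHCR7, the reductase of the last step of one branch to cholesterol, had 147 and 149 FPKM with si-RAB23-1, 165 and 165 with si-RAB23-9, against 153 and 147 with si-NC. Both si-RAB23-9 libraries were above the other 4. It rose by 0.14 against si-NC (SE 0.0299, limma adjusted p = 0.0386) and by 0.15 against si-RAB23-1 (limma adjusted p = 0.0212). The first call was lost without any 1 library of its groups (up to 0.193), and the other without si-RAB23-1 replicate 1 or either si-RAB23-9 library (up to 0.121). An antisense gene within its span, AP002387.1, had a mean of 20.6 FPKM and was called higher with both siRNAs against si-NC (0.42 with si-RAB23-1, 0.39 with si-RAB23-9).

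SC5D, a sterol desaturase that acts just before DHCR7, moved the other way between the siRNAs. It had 6.09 and 5.77 FPKM with si-RAB23-1, 4.85 and 4.74 with si-RAB23-9, against 5.44 and 4.93 with si-NC. The si-NC libraries lay between the 2 siRNAs, and only si-RAB23-9 against si-RAB23-1 was called (log2 fold change -0.26, limma adjusted p = 0.0343). That call was lost without any 1 library of these groups (up to 0.154). LSS, CYP51A1, MSMO1, NSDHL, HSD17B7 and EBP, which close the sterol rings and then demethylate and isomerise them, were called in no comparison. Their log2 fold changes ran from -0.29 (HSD17B7, si-RAB23-1 against si-NC, limma adjusted p = 0.0797) to 0.17 (EBP, si-RAB23-9 against si-RAB23-1). HSD17B7 had 1.44 and 1.65 FPKM with si-RAB23-1, 1.86 and 1.72 with si-RAB23-9, against 2.04 and 2.19 with si-NC, with no overlap between groups.

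**Figure D2:**
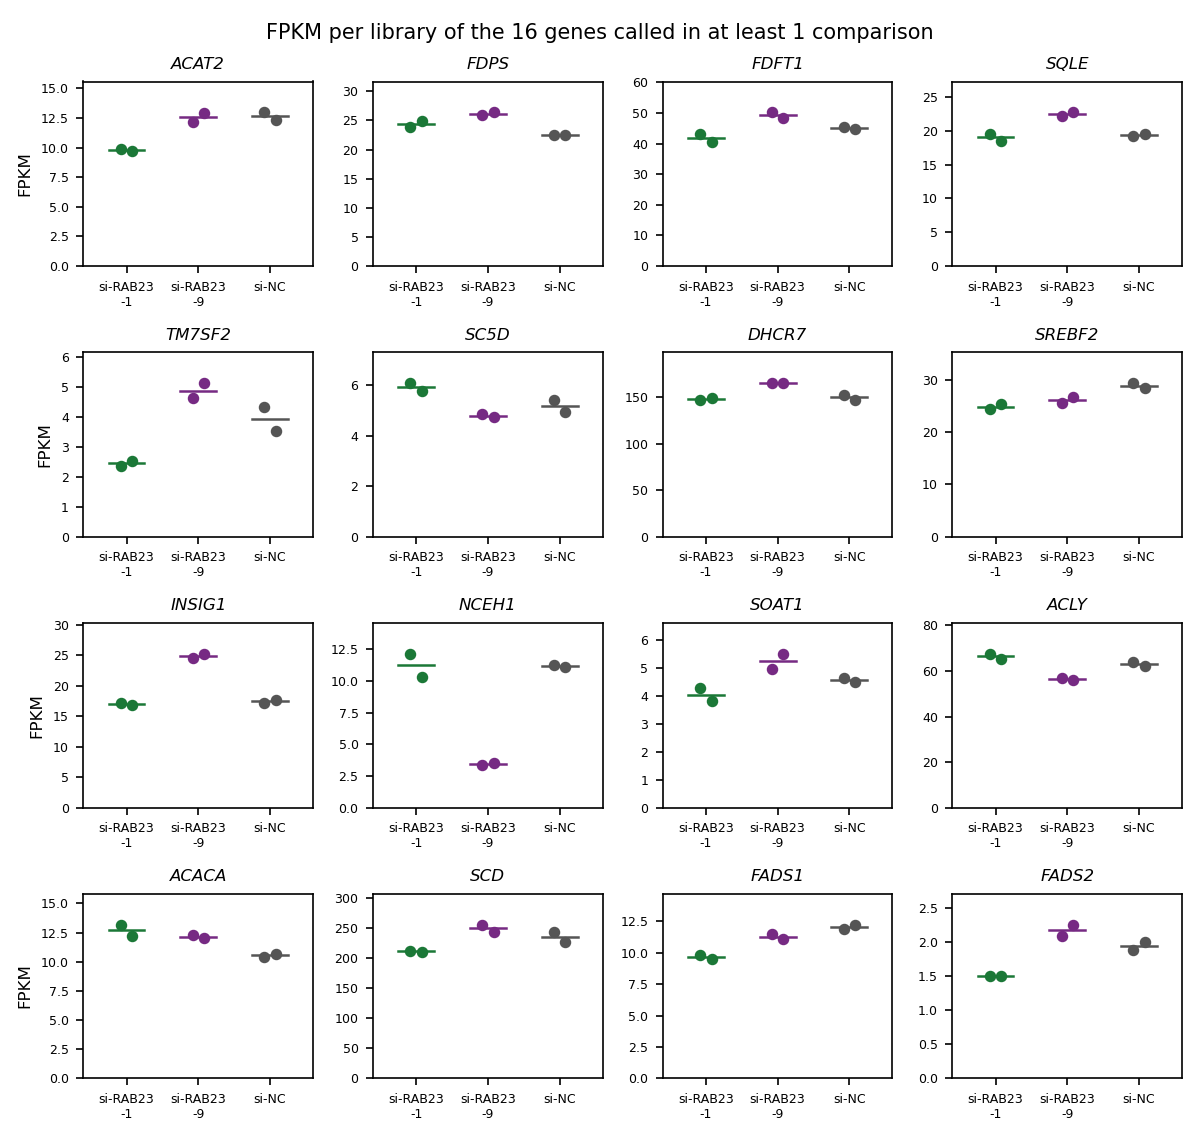
FPKM in each library of the 16 genes called in at least 1 comparison, with a line at the mean of each group's 2 libraries and the axis starting at 0. NCEH1 is low and INSIG1 high in both si-RAB23-9 libraries, while TM7SF2 is lowest in both si-RAB23-1 libraries.

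Among the 4 regulators of the SREBP pathway, INSIG1 rose with si-RAB23-9 and SREBF2 fell with si-RAB23-1. INSIG1 (ENSG00000186480, chromosome 7, 155297776 to 155310235), which encodes the protein that retains SCAP in the endoplasmic reticulum, had 17.2 and 16.9 FPKM with si-RAB23-1, 24.6 and 25.2 with si-RAB23-9, against 17.2 and 17.6 with si-NC. Both si-RAB23-9 libraries stood above the other 4, whose range was narrow. In mean FPKM si-RAB23-9 was 1.43 times si-NC and 1.46 times si-RAB23-1. The log2 fold change was 0.49 against si-NC (SE 0.0370, limma adjusted p = 0.00285) and 0.52 against si-RAB23-1 (limma adjusted p = 0.00160), and both calls held with any 1 library left out. With si-RAB23-1 it was -0.03 against si-NC, with a 95% interval of -0.12 to 0.06.

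SREBF2 (ENSG00000198911, chromosome 22, 41833079 to 41907308), which encodes the SREBP factor best known for cholesterol synthesis genes, had 24.4 and 25.3 FPKM with si-RAB23-1, 25.6 and 26.8 with si-RAB23-9, against 29.4 and 28.4 with si-NC. Every library of both RAB23 siRNAs was below both si-NC libraries. With si-RAB23-1 it fell by 0.21 (SE 0.0421, limma adjusted p = 0.0289), a call lost without either si-NC library, si-RAB23-1 replicate 1 or either si-RAB23-9 library (up to 0.150). With si-RAB23-9 the value was -0.14 (limma adjusted p = 0.0909). SREBF1, which encodes the factor linked mainly to fatty acid genes, had 80.3 and 90.3 FPKM with si-RAB23-1, 91.7 and 91.5 with si-RAB23-9, against 97.7 and 90.7 with si-NC. SREBF1 and SCAP, the escort of both factors, were called in no comparison, with log2 fold changes from -0.14 to 0.10. SREBF1 lies over RAI1, a gene on the opposite strand with a mean of 53.0 FPKM.

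NCEH1 changed more than any other of the 35 genes. It encodes a hydrolase that frees cholesterol from its esters. NCEH1 (ENSG00000144959, chromosome 3, 172630249 to 172711218) had 12.2 and 10.3 FPKM with si-RAB23-1, 3.39 and 3.505 with si-RAB23-9, against 11.3 and 11.1 with si-NC. Both si-RAB23-9 libraries were far below the other 4, and the si-RAB23-1 libraries lay either side of si-NC. In mean FPKM si-RAB23-9 was 0.308 times si-NC and 0.307 times si-RAB23-1. The log2 fold change was -1.46 against si-NC (SE 0.0767, limma adjusted p = 0.00149) and -1.45 against si-RAB23-1 (limma adjusted p = 0.00129), and both calls held with any 1 library left out. With si-RAB23-1 the difference from si-NC had a 95% interval of -0.19 to 0.19. Both AAGTTAA windows of this gene are printed above.

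The other carriers and storage genes moved less. SOAT1, which esterifies cholesterol for storage and so opposes NCEH1, had 4.27 and 3.801 FPKM with si-RAB23-1, 4.96 and 5.50 with si-RAB23-9, against 4.65 and 4.49 with si-NC. The groups did not overlap, with si-RAB23-9 highest and si-RAB23-1 lowest. Only si-RAB23-9 against si-RAB23-1 was called (log2 fold change 0.31, SE 0.0716, limma adjusted p = 0.0346), and the call was lost with any 1 library left out (up to 0.163). STARD4, a cytosolic sterol carrier, NPC1 and NPC2, which release cholesterol from lysosomes, and ABCA1, which exports it, were called in no comparison. STARD4 had 5.69 and 5.19 FPKM with si-RAB23-1, 5.40 and 4.86 with si-RAB23-9, against 6.17 and 6.399 with si-NC (log2 fold change -0.25, limma adjusted p = 0.0656, for si-RAB23-9 against si-NC). ABCA1, the lowest of the 35 in level, had 1.66 and 1.58 FPKM with si-RAB23-1, 1.12 and 0.884 with si-RAB23-9, against 1.46 and 1.199 with si-NC. Its libraries of si-RAB23-9 were below all others, but the test against si-RAB23-1 was not passed (-0.39, limma adjusted p = 0.0689). The 95% intervals of NPC1 and NPC2 lay within -0.23 and 0.24 in all 3 comparisons.

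**Figure D3:**
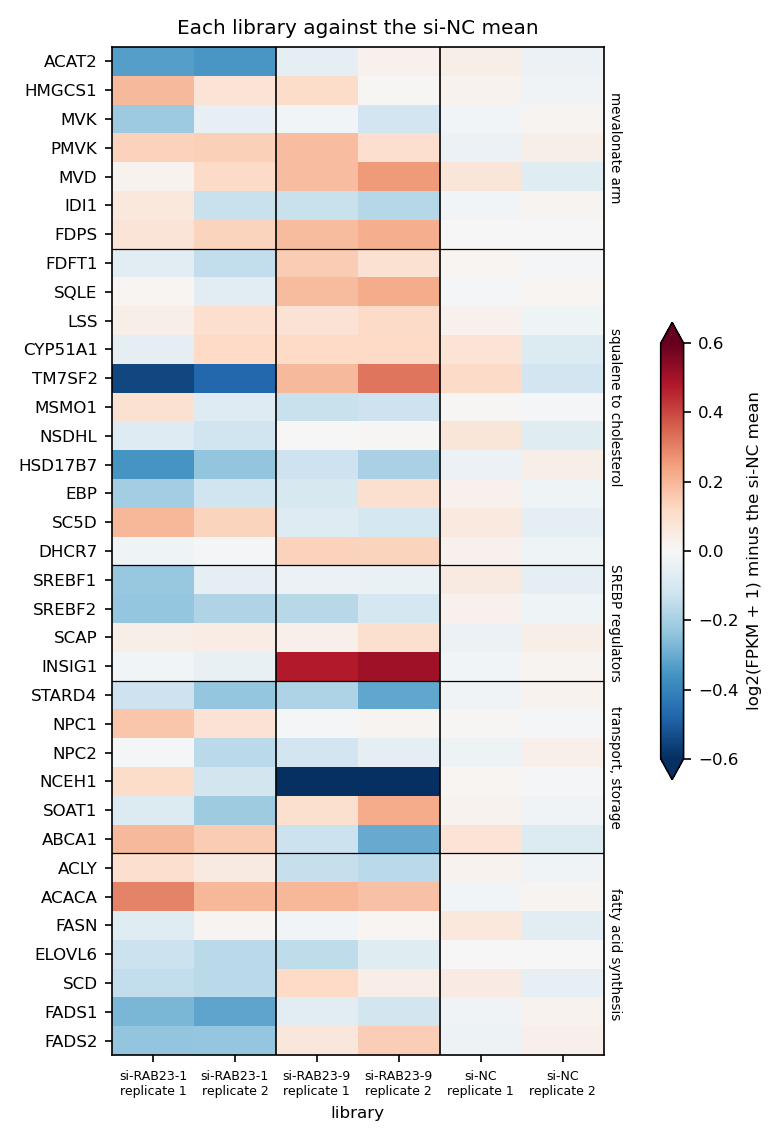
Difference of each library from the si-NC mean on the log2(FPKM + 1) scale for the 35 genes in 6 libraries, with colours clipped at 0.6 in either direction. INSIG1 and NCEH1 stand out in both si-RAB23-9 libraries (0.49 and -1.46 in the fit), and TM7SF2, ACAT2 and FADS1 are lower in both si-RAB23-1 libraries (-0.51, -0.34 and -0.30).

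In fatty acid synthesis, ACLY was lower and 3 desaturase genes were higher with si-RAB23-9 than with si-RAB23-1, and ACACA rose with si-RAB23-1 against si-NC. Between the siRNAs the shares of these 7 genes were 42.9% higher and 14.3% lower, beside 11.1% and 9.89% of all genes tested. ACLY, which makes cytosolic acetyl-CoA from citrate, had 67.6 and 65.5 FPKM with si-RAB23-1, 57.1 and 56.2 with si-RAB23-9, against 64.0 and 62.0 with si-NC. Both si-RAB23-9 libraries were the lowest. ACLY fell by 0.15 against si-NC (SE 0.0344, limma adjusted p = 0.0427) and by 0.23 against si-RAB23-1 (limma adjusted p = 0.0108). The first call was lost without any 1 library of its groups (up to 0.210), and the other without either si-RAB23-9 library (up to 0.0793). ACACA, the carboxylase that makes malonyl-CoA, had 13.2 and 12.2 FPKM with si-RAB23-1, 12.2 and 12.04 with si-RAB23-9, against 10.4 and 10.7 with si-NC. All 4 libraries of the RAB23 siRNAs were above both si-NC libraries. It rose by 0.25 with si-RAB23-1 (SE 0.0485, limma adjusted p = 0.0264), a call lost without either si-NC library, si-RAB23-1 replicate 1 or either si-RAB23-9 library (up to 0.135), and was at 0.19 with si-RAB23-9 (limma adjusted p = 0.0589).

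FASN, the fatty acid synthase itself, lay between 185 and 204 FPKM in all 6 libraries and was called in no comparison. Its log2 fold changes had 95% intervals of -0.16 to 0.11 with si-RAB23-1 and -0.13 to 0.13 with si-RAB23-9 against si-NC. ELOVL6, which extends saturated chains, was also called in no comparison, with 2.69 to 3.13 FPKM over the 6 libraries.

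The desaturases SCD, FADS1 and FADS2 were higher with si-RAB23-9 than with si-RAB23-1. SCD, which makes monounsaturated fatty acids, had 212 and 211 FPKM with si-RAB23-1, 256 and 243 with si-RAB23-9, against 244 and 228 with si-NC. The si-RAB23-9 and si-NC libraries overlapped, and both si-RAB23-1 libraries were lowest. FADS1, a desaturase of polyunsaturated chains, had 9.81 and 9.50 FPKM with si-RAB23-1, 11.5 and 11.1 with si-RAB23-9, against 11.9 and 12.3 with si-NC. The 3 groups of FADS1 did not overlap, with si-RAB23-1 lowest and si-NC highest. FADS2, which acts before FADS1 on the same chains, had 1.51 and 1.51 FPKM with si-RAB23-1, 2.09 and 2.26 with si-RAB23-9, against 1.88 and 2.01 with si-NC. Its groups did not overlap either, with si-RAB23-1 lowest and si-RAB23-9 highest.

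Between si-RAB23-9 and si-RAB23-1 the log2 fold change was 0.23 for SCD (limma adjusted p = 0.0200), 0.21 for FADS1 (limma adjusted p = 0.0243) and 0.34 for FADS2 (limma adjusted p = 0.0353). The SCD call was lost without any 1 library of these groups (up to 0.106), and those of FADS1 and FADS2 with any 1 library left out (up to 0.126 and 0.169). Against si-NC, FADS1 fell by 0.30 with si-RAB23-1 (SE 0.0422, limma adjusted p = 0.0117), a call lost without either si-NC library (up to 0.0846). SCD was at -0.15 (limma adjusted p = 0.0729) and FADS2 at -0.23 (limma adjusted p = 0.111) in that comparison. FADS2 overlaps FEN1, a DNA repair nuclease gene on the same strand with a mean of 44.4 FPKM, and FADS1 on the opposite strand. FEN1 itself was higher by 0.39 with si-RAB23-9 than with si-RAB23-1 (limma adjusted p = 0.00502). Against si-NC, FEN1 was called lower with si-RAB23-1 (-0.19, limma adjusted p = 0.0404) and higher with si-RAB23-9 (0.20, limma adjusted p = 0.0419). FADS2 had the same directions, at -0.23 and 0.11, without being called. The share of FADS2 reads that could come from FEN1 was not tested.

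**Figure D4:**
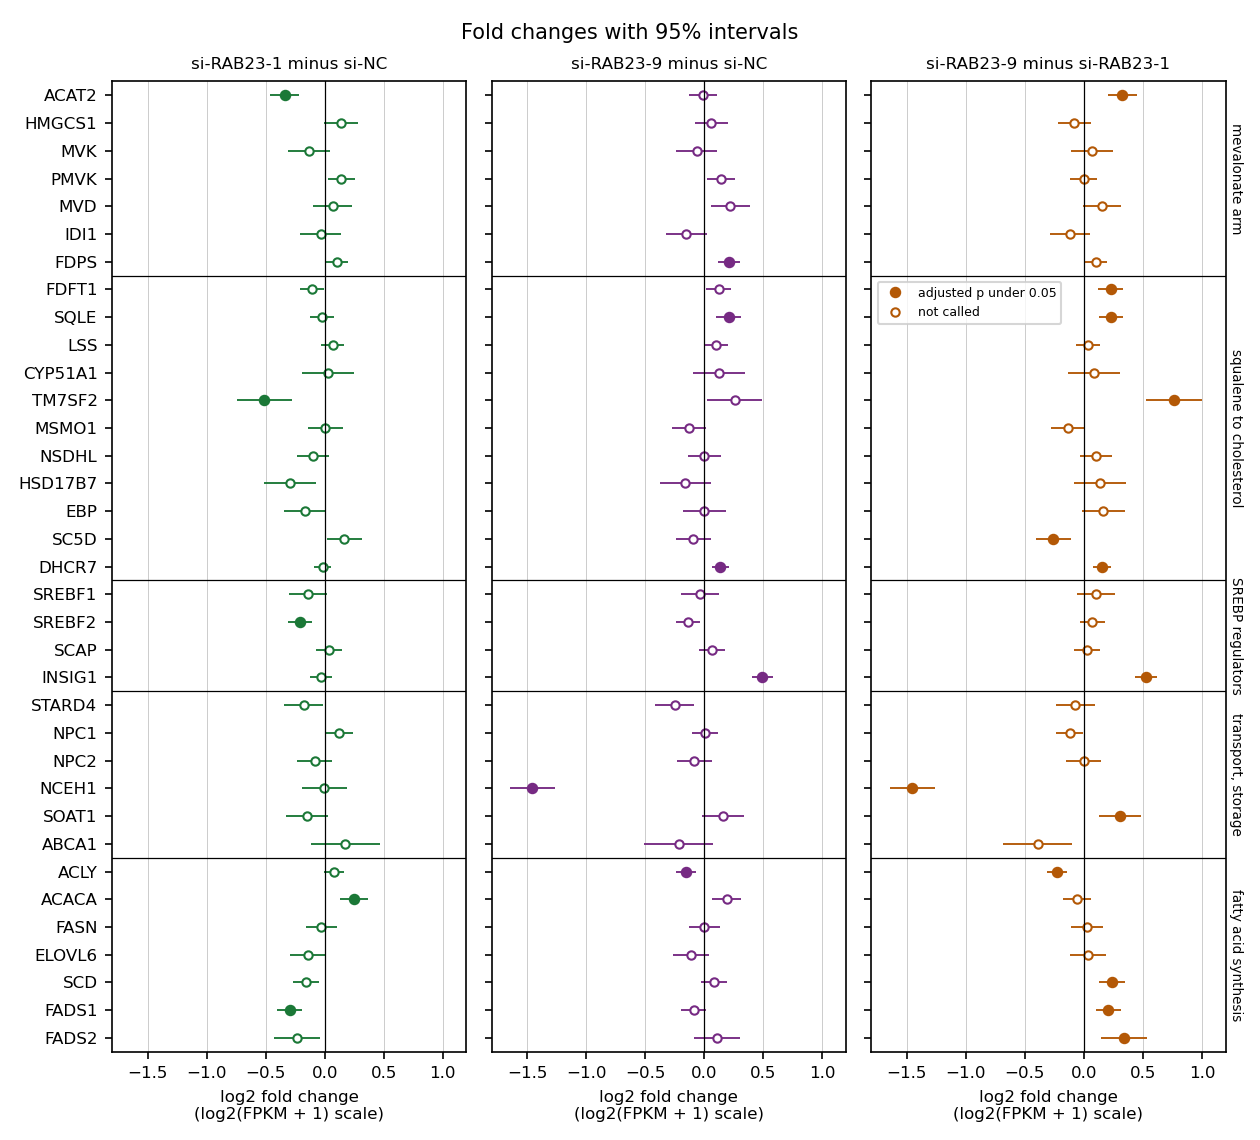
Log2 fold changes of the 35 genes on the log2(FPKM + 1) scale with 95% intervals from limma. The left panel sets si-RAB23-1 against si-NC, the middle one si-RAB23-9 against si-NC and the right one si-RAB23-9 against si-RAB23-1. Filled points passed an adjusted p of 0.05. The comparisons hold 5, 6 and 13 filled points, most of them within 0.5 of 0, and the 2 farthest from 0 are NCEH1 in the middle and right panels (-1.46 and -1.45).

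Further genes of these pathways, not among the 35, were counted from 2 lists. Both lists were drawn up with earlier results of these data known, so their shares support nothing about the pathway. Of 20 other sterol pathway genes 16 were tested. With si-RAB23-1, 1 was higher and 3 were lower than with si-NC (6.25% and 18.75% of the 16, beside 8.13% and 7.26% of all genes). The higher one was NR1H2, which encodes a liver X receptor (0.29), and the lower ones were MYLIP, a ubiquitin ligase for lipoprotein receptors (-0.43), SCARB1, a lipoprotein receptor (-0.25), and LIPA, the lysosomal lipase (-0.22). MYLIP had 6.73 and 8.54 FPKM with si-RAB23-1, against 10.6 and 10.6 with si-NC, and its fold change was -0.28 if the first si-RAB23-1 library was left out and -0.59 if the second was. With si-RAB23-9 none of the 16 was called by limma (0 higher and 0 lower, beside 7.56% and 5.69% of all genes). At an unadjusted p under 0.05, 2 were higher and 0 lower. Voom on the recovered reads called 2 higher and 1 lower with library totals, and 1 higher and 1 lower with median-of-ratios sizes. Between si-RAB23-9 and si-RAB23-1, 3 were higher and 2 lower (18.75% and 12.5%, beside 11.1% and 9.89% of all genes). The 4 called genes farthest from 0 were TMEM97, a sterol-regulated membrane protein gene (0.33), SCARB1 (0.30), LIPA (0.23) and NR1H2 (-0.32). The 4 calls with si-RAB23-1 were lost without either si-NC library, those of SCARB1, LIPA and NR1H2 between the siRNAs without either si-RAB23-9 library, and that of TMEM97 without replicate 1 of either RAB23 siRNA. The NR1H2 call between the siRNAs was also lost without either si-RAB23-1 library.

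Of 22 other fatty acid and glycerolipid genes 19 were tested. With si-RAB23-1, 4 were higher and 4 lower than with si-NC (21.1% each), where 8.13% and 7.26% of all genes tested were called. With si-RAB23-9, 3 were higher and 1 lower (15.8% and 5.26%, beside 7.56% and 5.69%). Between si-RAB23-9 and si-RAB23-1, 6 were higher and 4 lower (31.6% and 21.1%, beside 11.1% and 9.89%). This list was drawn up with earlier results of these data known, so its shares support nothing about the pathway. ELOVL5, an elongase of polyunsaturated chains, had 22.2 and 21.9 FPKM with si-RAB23-1, 43.1 and 43.1 with si-RAB23-9, against 40.1 and 42.2 with si-NC. HSD17B12, a reductase of the elongation cycle, had 5.67 and 5.80 FPKM with si-RAB23-1, 9.27 and 8.74 with si-RAB23-9, against 8.60 and 8.57 with si-NC. Both were low in the si-RAB23-1 libraries alone, and both carry GACATAT in the 3′ UTR (ELOVL5 also AAGTTAA). PANK3, from the sterol list, carries GACATAT too and was not called with si-RAB23-1 against si-NC. The falls against si-NC were 0.87 for ELOVL5 (limma adjusted p = 0.00177) and 0.51 for HSD17B12 (limma adjusted p = 0.00398), and the differences between si-RAB23-9 and si-RAB23-1 were 0.94 and 0.57.

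SCD5, a second stearoyl-CoA desaturase gene, had 12.5 and 13.3 FPKM with si-RAB23-1, 6.39 and 6.83 with si-RAB23-9, against 11.9 and 11.6 with si-NC. It was low with si-RAB23-9 alone and carries AAGTTAA in the 3′ UTR. Of the related genes tested, OSBP, ACSS2, ELOVL5, ACSL1, ACSL4 and GPAM carry AAGTTAA too, and none of them was called with si-RAB23-9 against si-NC. For SCD5 the fold changes were as follows. The log2 fold change was -0.74 against si-NC (limma adjusted p = 0.00280) and -0.87 against si-RAB23-1 (limma adjusted p = 0.00130). ME1, a malic enzyme that supplies NADPH, had 21.6 and 21.4 FPKM with si-RAB23-1, 18.95 and 18.1 with si-RAB23-9, against 13.4 and 14.2 with si-NC. All 4 libraries of the RAB23 siRNAs were above both si-NC libraries, with log2 fold changes of 0.60 (limma adjusted p = 0.00295) and 0.40 (limma adjusted p = 0.00655). The calls of ELOVL5, HSD17B12 and SCD5 and that of ME1 with si-RAB23-1 held with any 1 library left out, and that of ME1 with si-RAB23-9 was lost without si-NC replicate 1 or si-RAB23-9 replicate 1 (up to 0.0546). FABP5, a fatty acid binding protein gene, was at 0.59 with si-RAB23-1 against si-NC, a call lost without si-NC replicate 1 or si-RAB23-1 replicate 1. PPARG, which encodes a lipid-sensing nuclear receptor, and SLC25A1, the citrate carrier, were at 0.34 and 0.29 with si-RAB23-9 against si-NC, and AGPAT2, an acyltransferase of glycerolipid synthesis, at 0.49 between si-RAB23-9 and si-RAB23-1, and these 3 calls were lost without either si-RAB23-9 library, those of PPARG and SLC25A1 also without either si-NC library.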

How the data were processed

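Total RNA of KYSE30 cells had been sequenced in 6 libraries, 2 for each of si-RAB23-1, si-RAB23-9 and si-NC, grouped by their titles. The authors deposited 1 table of FPKM per gene and library. Per the submitters' processing notes, which state no roles, the build was hg19 and the tools were edgeR 3.8.5, RSEM 1.2.29, STAR 2.5.1b, Trimmomatic 0.36 and FastQC. However, all 58735 genes have the start and end of GENCODE release 29, and coordinates are therefore given on GRCh38. Times the length of the gene, 100% of the FPKM came to whole numbers of a single step per library, within 0.01 read. These recovered reads gave the totals of 17211025 to 24178125, and they limit the precision of low genes. In 27 rows the symbol had become a date and was resolved by gene ID.

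The main test ran on log2(FPKM + 1) of the deposited FPKM, with limma 3.58.1 under R 4.3.3, all 6 libraries, 1 mean per group and eBayes with trend (3 residual degrees of freedom), two-sided, for 14352 genes with at least 1 FPKM in at least 2 libraries. The step was tested on data simulated with larger changes than most calls of the 35 genes, so that test does not cover calls of their size. A total of 13 alternatives were fitted, with another pseudocount, other filters, another scaling, a replicate block, each library left out, and voom on the recovered reads. Same-numbered libraries did not deviate together, with correlations of -0.06, -0.02 and 0.06 between pairs of groups. The 35 genes, the related lists and the heptamers were chosen with earlier results of these data known. Every 1 of the 35 is named, those called in at least 1 comparison with all their values, and of each related list up to 4 called genes of largest fold change per comparison. Promoter windows are from RefSeq (GRCh38.p14), and 3′ UTRs from the GENCODE 29 basic transcripts.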

Additional observations from a re-analysis of the deposited data

How the results depend on the processing

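No direction of a called gene among the 35 turned under any of the 13 alternatives. Of 308 values of the 24 calls, 219 stayed on their side of the threshold and 89 did not. Only 5 calls were kept in every alternative that gave a value, those of INSIG1 and NCEH1 in both comparisons of si-RAB23-9 and that of TM7SF2 against si-RAB23-1, and the other 19 were lost with at least 1 library left out. A fit of 5 libraries has fewer residual degrees of freedom: over all genes tested, si-RAB23-1 had 205 higher and 182 lower without si-NC replicate 1, where the full fit had 1167 and 1042.

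With si-RAB23-1 against si-NC, the 1 higher gene became 0 and the 4 lower became 2 with no filter on low values. Leaving out 1 library gave 0 to 1 higher and 0 to 3 lower, and voom gave 12 lower with library totals and 10 with median-of-ratios sizes. With si-RAB23-9 against si-NC, the 4 higher and 2 lower became 2 and 1 with no filter. Leaving out 1 library gave 1 to 5 higher and 1 to 2 lower, and voom with library totals gave 7 higher and 5 lower, with median-of-ratios sizes 6 lower. Between si-RAB23-9 and si-RAB23-1, the 10 higher became 4 with no filter, and leaving out 1 library gave 2 to 7 higher and 1 to 4 lower. Voom between these siRNAs gave 13 higher and 4 lower with library totals, and 10 and 4 with median-of-ratios sizes. Over all genes tested voom gave 2695 and 1798, and 2290 and 2116, where the main fit had 1599 and 1420. In the fit with a replicate block, si-RAB23-9 against si-NC had 2 higher and 1 lower, and the counts in the other comparisons stayed within 1.5 times. The replicate numbers are not stated to pair libraries. With no filter 35196 genes enter the adjustment, with 543 higher and 506 lower for si-RAB23-1 against si-NC. For si-RAB23-9 against si-NC these were 552 and 431, and between the siRNAs 771 and 687. Voom raised the calls over all 14352 genes too. With library totals, lower genes went from 1042 to 2178 with si-RAB23-1 and from 817 to 1536 with si-RAB23-9, against si-NC. With median-of-ratios sizes they were 1915 and 1605. Higher genes with si-RAB23-9 went from 1085 to 1872 with library totals. For the other shifts the cause was not tested. Genes with a mean under 5 FPKM, TM7SF2, SOAT1 and FADS2 among them, have no value under the stricter filter. The medians over the 35 moved by less than the spread of replicates (0.056). That spread is wider than the medians against si-NC (-0.03 and 0.0016), so it cannot show whether their sign is stable. RAB23 was called lower with both siRNAs in every alternative that gave a value, but its log2 fold changes of -1.06 and -0.95 became -1.55 and -1.36 with a pseudocount of 0.1, and -1.65 and -1.43 with voom and library totals.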

Other observations

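The 35 genes were also set out by the promoter motifs marked above, as values with no test. Of the 31 genes with a RefSeq window, the 7 with CACNCCAC had a median log2 fold change of -0.09 with si-RAB23-9 against si-NC, and the 24 without it 0.0026. With si-RAB23-1 against si-NC the order was the other way, at -0.03 for the 7 and -0.05 for the 24. Between si-RAB23-9 and si-RAB23-1 the medians were -0.06 for the 7 and 0.08 for the 24. The 23 genes with CCAAT had a median of 0.0016 with si-RAB23-9 against si-NC and the 8 without it -0.02. With si-RAB23-1 against si-NC these were -0.03 and 0.04, and between si-RAB23-9 and si-RAB23-1 0.07 and 0.03. INSIG1 (higher) was the only one of the 7 CACNCCAC genes called with si-RAB23-9 against si-NC, while ACACA (higher) and SREBF2 (lower) were called with si-RAB23-1. Of the 24 genes lacking CACNCCAC, si-RAB23-9 had 2 called higher and 2 lower, si-RAB23-1 had 0 and 2. Calls over all genes tested came to 7.56% higher and 5.69% lower for si-RAB23-9. For si-RAB23-1 they were 8.13% and 7.26%. The calls among the 7 are too few to set them apart from these shares, and no test was made.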
